A study of Mus musculus with 6 samples.

Results

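The 10 genes followed belong to trophic factor signalling: the neurotrophin gene Bdnf, the neurotrophin receptor genes Ntrk2, Ntrk3 and Ngfr, the GDNF receptor genes Ret, Gfra1 and Gfra2, and the CNTF and LIF receptor genes Cntfr, Lifr and Il6st. They were taken by name, with every probe set whose only annotated gene symbol is one of them, which gave 40 probe sets of 10 genes among 34945 probe sets of 18193 genes on the array. The arrays compared 2 fractions of the same tissue. The IP group held 3 samples of RNA pulled down with tagged ribosomes from adult Slc6a4 JD60 mice, a bacterial artificial chromosome line in which the serotonin transporter's regulatory region directs the tag to serotonin neurons. The 3 samples of the unbound group are what the pull-down left in the same lysates, standing for total tissue. All 6 samples thus carry the transgene and no group without it was analysed here. Each sample pooled 5 male and female mice aged 6 to 12 weeks, of mixed FVB and C57BL/6J background. The tissue was dissected midbrain and brainstem without cerebellum. Cell type and ribosome binding change together between IP and unbound RNA and cannot be told apart. In these bulk samples fewer cells of a type and less RNA per cell cannot be told apart either.

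Neurotrophins are secreted growth factors that act on neurons through Trk receptor tyrosine kinases and through the unrelated p75 receptor encoded by Ngfr. GDNF family ligands bind a GFRα co-receptor, anchored in the membrane by a lipid, which then engages the kinase RET. CNTF and LIF act through receptor complexes that share the signal-transducing chain gp130, encoded by Il6st, and activate JAK kinases and STAT3. BDNF signalling through TrkB is known for supporting the growth of serotonin axons in the rodent brain. TrkB also exists in a truncated form without the kinase domain.

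The values are log2 expression values. Those of IP arrays were shifted by -0.23, the mean difference between the groups over 18 biotinylated hybridisation controls, since the authors had normalised the groups separately. A gene was read by its brightest probe set and tested where at least 3 of 6 arrays reached log2 5, called the detection limit here. It was called where limma's adjusted p was under 0.05 and the change at least 2-fold, and "rose" and "fell" are used only of called changes. Where a gene or probe set is given as "at least" so many fold higher or lower, one group lay below the limit on every array, unless a number of arrays is given. With every array below, it passed the filter only through the other group, its fitted change and p rest on values below the limit, and the bound is what the arrays measured. IP arrays correlated with each other at 0.996 to 0.999 (Pearson's r, across probe sets), unbound arrays at 0.994 to 0.997, and arrays of different groups at 0.924 to 0.932. The purification was checked on 9 serotonergic marker genes, all of them called higher in IP, with Tph2 at 15.16 in IP against 9.35 in unbound RNA and Slc6a4 at 14.20 in IP against 9.05 in unbound RNA. With 3 arrays a group, precision is limited by their number.

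All 10 genes were tested. Gfra1 and Ngfr were called higher in IP, Ngfr by little once counted against the detection limit, and Bdnf, Gfra2, Cntfr, Lifr and Il6st were called lower. Ntrk2, Ntrk3 and Ret were not called. Called genes thus made up 2 higher and 5 lower of 10, where 10.4% of all 10581 tested genes were called higher and 41.1% lower. The median log2 change was -1.10 over the 10 genes and -0.65 over all tested genes. The direction of a change near that median depends on the scaling between groups, whereas a gene's place among all genes does not move with a constant shift.

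**Figure D1:**
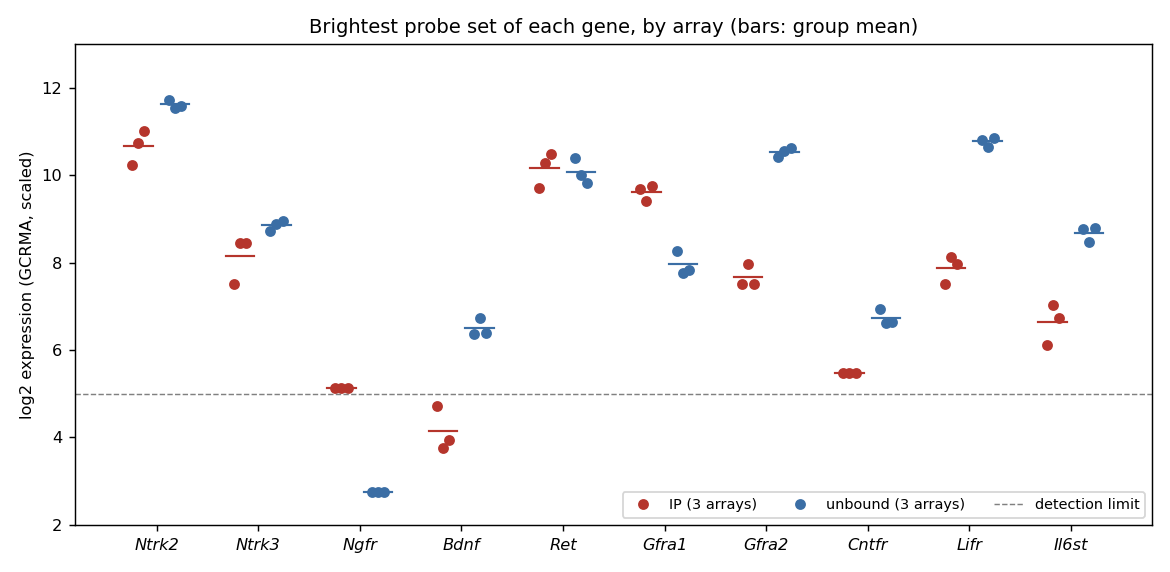
Scaled log2 expression of the brightest probe set of each gene on every array, IP (red) left of unbound (blue), with a bar at each group mean and a dashed line at the detection limit of 5. The Gfra1 points lie higher in IP, those of Gfra2, Cntfr, Lifr and Il6st lie lower in IP, and those of Ret overlap.

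Bdnf, the only ligand gene among the 10 (chromosome 2, 109674700 to 109727043, GRCm38.p6), was hardly measurable in the ribosome fraction. Its brighter probe set read 4.73, 3.77 and 3.94 in IP and 6.37, 6.73 and 6.39 in unbound RNA. Every IP array was below the detection limit and every unbound array above it, so the gene passed the filter only through its unbound arrays. Counted against the limit, Bdnf was at least 2.82-fold lower in IP (limma, log2 change -2.35 ± 0.27 SE, adjusted p = 0.000312, n = 3 each). The other Bdnf probe set, at 2.60 in IP and 7.38 in unbound RNA, was at least 5.20-fold lower (probe-set fit, adjusted p = 6.14e-07). Both are of the type that matches several transcripts of a gene.

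Of the other neurotrophin ligands on the array, Ntf5 lay below the limit on every array, at 1.98 in IP and 2.63 in unbound RNA. The genes listed for proneurotrophin processing, not all of them for proteases that cut proneurotrophins, had 3 of 7 tested genes higher and 1 lower (median 0.01, beside -0.65 over all genes). Of all tested genes 10.4% were called higher and 41.1% lower. Pcsk5, a proprotein convertase, rose by 3.22, at 10.52 in IP against 7.30 in unbound RNA (adjusted p = 5.46e-06). Pcsk6, a related convertase, rose by 1.34. Mmp9, a secreted metalloprotease, was called at 5.72 in IP and 3.99 in unbound RNA, at least 1.65-fold higher. Plat, the tissue plasminogen activator gene, fell by 1.72, a call lost centred on all probe sets (-0.69), after quantile normalisation (-0.97) and with the mean of probe sets (-0.97). With the poly-A spikes Pcsk5 was not called (0.55). Its probe set bears the suffix _s_at. Pcsk5 did not pass the filter without _s_at, _x_at and _a_at probe sets, nor with the mean of probe sets.

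Ntrk2, which encodes the BDNF receptor TrkB (chromosome 13, 58806472 to 59133970), was abundant in both fractions by its brightest probe set. That probe set, 1458622_at, read 10.23, 10.73 and 11.02 in IP and 11.73, 11.54 and 11.58 in unbound RNA. The groups did not overlap, with IP lower, but the difference of -0.96 ± 0.21 SE (95% interval -1.47 to -0.45, adjusted p = 0.00578) fell short of 2-fold and was not called. Without IP replicate 3 it reached -1.14 and was called. Ntrk2 was also called lower with the mean of its probe sets, at -1.2 (limma, adjusted p = 7.37e-06), and with the poly-A spikes, at -3.63.

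The 8 probe sets of Ntrk2 gave very different answers. This was the widest spread within any of the 10 genes, but Ntrk2 had 5 tested probe sets and each other gene only 1 or 2. Of the 8, 3 lay below the limit on every array. Of the 5 tested, 1435305_at had a log2 change of -0.09 (9.40 in IP, 9.50 in unbound RNA) and 1437560_at of -0.26 (7.24 in IP, 7.51 in unbound RNA), neither called. Probe set 1420838_at fell by 2.33, at 7.96 in IP and 10.29 in unbound RNA. The remaining one, 1435196_at, read 4.07, 4.26 and 3.57 in IP and 9.56, 9.06 and 9.46 in unbound RNA. It was thus below the limit on every IP array and well above it on every unbound array, at least 20.5-fold lower in IP (probe-set fit, log2 change -5.40, adjusted p = 4.67e-06). Among all 16835 probe sets tested 10.4% were called higher and 43.0% lower.

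The difference between 2 probe sets of a gene on the same array does not depend on any constant scaling between groups, as long as both are above the limit. Each tested probe set was therefore set against the brightest one of its gene on each array, and those differences were compared between IP and unbound arrays in one limma fit over 6243 differences, of which 31.2% were called. Relative to 1458622_at, probe set 1435196_at was lower in IP, by at least -3.40 on the log2 scale with its dim IP arrays counted at the limit (fitted difference -4.44 ± 0.33 SE, adjusted p = 5.01e-05). Probe set 1420838_at differed by -1.37 in the same comparison (adjusted p = 0.00727), and -0.99 after quantile normalisation, where it was no longer called. The other 2 went the opposite way, at 0.86 (1435305_at, adjusted p = 0.00730) and 0.69 (1437560_at, adjusted p = 0.0418), both under 2-fold and both called after quantile normalisation, at 1.21 and 1.39. The annotation used here gives each probe set a gene but no transcript, so which TrkB form each one reads was not tested. Markers of many other cells stood lower in IP beside these probe sets: 10 of 10 tested astrocyte genes were called lower, 8 of 8 oligodendrocyte, 3 of 3 oligodendrocyte precursor, 5 of 5 pericyte and meningeal, 5 of 5 catecholaminergic, 4 of 5 microglial and 2 of 2 endothelial genes. The remaining microglial gene, Aif1, was called higher, at 5.73 in IP and 4.71 in unbound RNA, at least 1.66-fold. Below the limit on every IP array, tested or not, were 5 of 10 astrocyte and 2 of 8 oligodendrocyte genes. So were 3 of 3 oligodendrocyte precursor, 7 of 8 pericyte and meningeal, 2 of 5 catecholaminergic, 3 of 6 microglial and 6 of 6 endothelial genes. Those of them that were tested passed the filter only through unbound arrays and could not have been called higher. The mean log2 level of the astrocyte list lay between 6.22 and 6.36 on IP arrays and between 9.68 and 10.02 on unbound arrays. Their part in the Ntrk2 values was not tested.

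**Figure D2:**
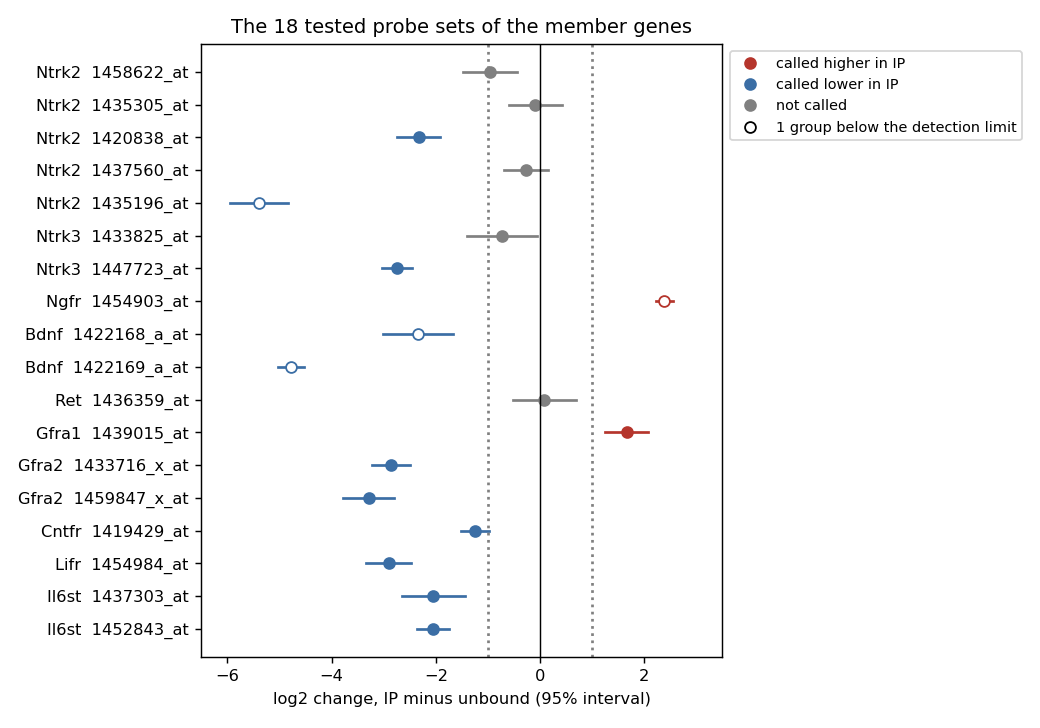
Log2 change (IP minus unbound) with its 95% interval for the 18 tested probe sets, in red where called higher in IP, blue where called lower and grey where not called, with dotted lines at 2-fold. Open points had 1 group below the detection limit on all its arrays, and the 5 Ntrk2 probe sets spread between -5.40 and -0.09.

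Ntrk3, the gene of the NT-3 receptor TrkC (chromosome 7, 78179986 to 78581034), showed the same kind of split. Its brightest probe set, 1433825_at, read 7.51, 8.44 and 8.45 in IP and 8.73, 8.89 and 8.96 in unbound RNA. IP was lower on every array, but by only -0.72 ± 0.27 SE (95% interval -1.38 to -0.06, adjusted p = 0.0470), which is under 2-fold and was not called. The second tested probe set, 1447723_at, was 4.93 in IP and 7.67 in unbound RNA, and only 1 of its 3 IP arrays reached the limit. With the dim arrays counted at the limit it was at least 6.25-fold lower in IP (probe-set fit, log2 change -2.74, adjusted p = 5.37e-06). Relative to the brightest one it differed by at least -1.92 counted in that way (fitted -2.02 ± 0.23 SE, limma, adjusted p = 0.000352). The other 6 Ntrk3 probe sets did not pass the filter.

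Ngfr encodes p75, a receptor of the tumour necrosis factor receptor family that binds all neurotrophins (chromosome 11, 95568818 to 95587698). Of its 3 probe sets, 2 lay at the bottom of the scale in both fractions. The third read 5.13 on all 3 IP arrays and 2.75 on all 3 unbound arrays. Among probe sets averaging at least 5, such exact repeats made up 15.8% in IP and 0.481% in unbound RNA, and they leave no spread of their own. The fitted log2 change of 2.39 was called (limma, adjusted p = 8.96e-07), but against the detection limit the bound is only at least 1.10-fold higher, and the gene was not tested when each array was scaled to its own biotin controls.

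Among genes whose products bind p75 or pass on its signals, listed with its relative Tnfrsf19, 2 of 10 tested were higher in IP and 4 lower (median -0.41). These shares lay near those of all tested genes, 10.4% higher and 41.1% lower (median -0.65). Bex3, also named Ngfrap1 for its binding to p75, was abundant and rose by 1.57, at 14.19 in IP and 12.62 in unbound RNA (adjusted p = 5.96e-06). Irak1, a kinase that p75 shares with interleukin 1 receptors, rose by 1.29. It read 10.59 on all 3 IP arrays, and stood at 1.36 when probe sets with identical values were left out. Tnfrsf19, a relative of p75 called TROY, was below the limit in IP and at least 3.87-fold lower. Zfp110 and Zfp369, zinc finger genes first described as p75 partners, fell by 3.46 and 1.63. The call of Zfp369 was lost under 4 alternatives, both median scalings (-0.96 and -0.60), quantile normalisation (-0.79) and the mean of probe sets (-0.91). Zfp369 also read 6.68 on all 3 IP arrays and was not tested without identical values. Traf6, an adaptor, fell by 1.03 but stood at 0.05 after quantile normalisation. Its call was also lost unscaled (-0.79), under both median scalings (-0.35 and 0.00) and without unbound replicate 1 (-0.81). Of the sorting receptors listed, Sorl1 fell by 2.40 and Sort1, sortilin, by 1.09, while Sorcs1 (0.84) and Sorcs3 (0.94) were not called. Sorcs2, at 2.04 in IP and 5.09 in unbound RNA, did not pass the filter. The Sort1 call was lost unscaled (-0.86), under both median scalings (-0.41 and -0.06) and after quantile normalisation (-0.47).

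Ret, the kinase subunit of the GDNF receptors (chromosome 6, 118151748 to 118197744), was abundant in both fractions and was not called. It read 9.71, 10.27 and 10.48 in IP and 10.39, 10.01 and 9.82 in unbound RNA. The groups overlapped, and the log2 change was 0.08 ± 0.24 SE (95% interval -0.51 to 0.67, adjusted p = 0.766). Its other probe set was below the limit on all arrays, at 3.24 in IP and 2.22 in unbound RNA. Ret lay higher than 70.5% of tested genes in its change, and its sign turned without IP replicate 3 (-0.08) and without unbound replicate 3 (-0.04).

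The 2 co-receptor genes of the family moved in opposite directions. Gfra1, whose product binds GDNF itself (chromosome 19, 58235581 to 58455946), read 9.68, 9.42 and 9.76 in IP and 8.26, 7.77 and 7.84 in unbound RNA. All IP arrays were higher than all unbound arrays, and Gfra1 was 3.17-fold higher in IP (log2 change 1.66 ± 0.17 SE, adjusted p = 0.000163), above 95.9% of tested genes. It stayed called higher without any one of the 6 samples (1.57 to 1.82) and under every scaling but that to the poly-A spikes. There it was called lower, at -1.01 (limma, adjusted p = 0.00085), against a median of -3.37 for all tested genes. Its other 2 probe sets were below the limit on all arrays, at 3.82 and 3.22 in IP and 2.28 and 2.34 in unbound RNA. They were not tested and give no direction, so the call rests on 1 probe set.

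Gfra2, whose product prefers neurturin (chromosome 14, 70890107 to 70979840), read 7.51, 7.96 and 7.51 in IP and 10.41, 10.55 and 10.61 in unbound RNA. Without overlap, it was 7.28-fold lower in IP (log2 change -2.86 ± 0.15 SE, adjusted p = 9.51e-06), higher than only 11.8% of tested genes. A second probe set, at 4.84 in IP and 8.13 in unbound RNA, reached the limit on only 1 of 3 IP arrays and was at least 8.36-fold lower with the dim arrays counted at the limit. Both bear the suffix _x_at, which marks probe sets that can also match other transcripts, and the 3 Gfra2 probe sets without it lay below the limit on every array. Nrtn, the neurturin gene, was at least 1.78-fold lower (2.92 in IP, 5.83 in unbound RNA), while Gdnf, Artn and Pspn lay below the limit on every array. Gfra4, the gene of the persephin co-receptor, was not called at 0.85, and Gfra3 was below the limit throughout.

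Other neurons that use GDNF receptors were checked through their markers. All 5 catecholaminergic markers with a usable probe set were called lower, at a mean log2 level of 4.59 to 4.86 in IP against 7.97 to 7.99 in unbound RNA. Slc6a2 at 1.99 and Th at 4.24 were below the limit in IP, while Dbh (5.41), Slc6a3 (5.74) and Nr4a2 (6.4) were above it on every IP array. Of 6 cholinergic and motor neuron markers 2 were tested: Isl1 was at least 2.65-fold lower and Prph, at 7.28 in IP and 7.37 in unbound RNA, was not called. Chat, Slc5a7 and Mnx1 lay below the limit in both fractions. The part of other neurons in the Gfra1 signal was not tested.

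**Figure D3:**
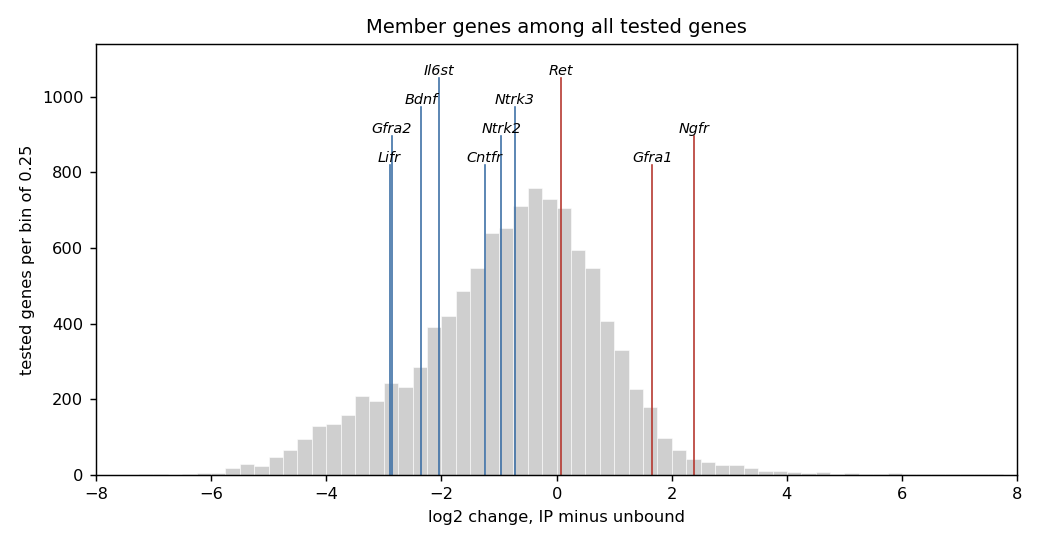
Number of tested genes (grey) by log2 change, IP minus unbound, in bins of 0.25, with each of the 10 genes marked by a line, red above 0 and blue below. Gfra1 and Ngfr lie in the upper tail, Ret, Ntrk3 and Ntrk2 in the body of the distribution, and Gfra2 and Lifr in its lower part.

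The 3 genes of the CNTF receptor complex were all lower in IP, and none reversed under any scaling tried. Cntfr, the lipid-anchored subunit that gives the complex its specificity (chromosome 4, 41657498 to 41697091), read 5.48 on all 3 IP arrays and 6.94, 6.62 and 6.63 on unbound arrays. It fell by 1.25 (2.37-fold, adjusted p = 8.51e-05), just above the limit in IP and with the same value on every IP array. That call was lost under both median scalings (-0.57 over expressed and -0.22 over all probe sets) and quantile normalisation (-0.07), so it is the least secure of the 3.

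Lifr, the LIF receptor subunit (chromosome 15, 7090610 to 7197489), read 7.51, 8.13 and 7.97 in IP and 10.81, 10.65 and 10.85 in unbound RNA. It was 7.47-fold lower in IP (log2 change -2.90 ± 0.17 SE, adjusted p = 1.72e-05) and stayed called under all scalings, at -1.87 in the mildest. Il6st, the gp130 gene shared by the family (chromosome 13, 112464070 to 112506860), read 6.12, 7.03 and 6.74 in IP and 8.77, 8.47 and 8.79 in unbound RNA. It was 4.13-fold lower in IP (log2 change -2.05 ± 0.24 SE, adjusted p = 0.000380), and a second probe set gave nearly the same change, -2.05 ± 0.12 SE. Both genes were above the limit on every IP array. Of 10 astrocyte markers, Aldh1l1, Slc1a3, Sox9, Acsbg1 and Fgfr3 were below it on every IP array and the other 5 were not. Of 8 oligodendrocyte markers, Myrf and Olig2 were below it on every IP array and the other 6 were not. The part of glial RNA in the remaining Lifr and Il6st signal was not tested.

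Of 14 tested JAK, STAT and inhibitor genes downstream of gp130, 9 were lower and none higher, while 5 were not called (median -1.24, or -1.16 with dim genes at their bound). Among all tested genes 41.1% were called lower and 10.4% higher (median -0.65). Stat3, the main transcription factor of the pathway, was below the limit in IP and at least 6.53-fold lower (4.27 in IP, 7.71 in unbound RNA). Socs6 and Socs7, of the suppressor of cytokine signalling family, fell by 1.98 and 1.56, and Pias4, a SUMO ligase that inhibits STAT proteins, was at least 2.31-fold lower. These 3 calls were lost with arrays centred on all probe sets (-0.95, -0.53 and -0.94), that of Socs7 also centred on expressed probe sets (-0.88) and with the mean of probe sets (-0.94), and that of Pias4 after quantile normalisation (-0.53). None of the 6 gp130 ligand genes with a usable probe set (Lif, Il6, Il11, Osm, Ctf1 and Clcf1) passed the filter, and the receptor genes Il6ra and Osmr had means below the limit in both fractions.

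Shared signalling genes downstream of Trk and RET were called lower more often than higher. Of 18 tested adaptors 1 was higher and 12 lower (median -1.34, or -1.22 with dim genes at their bound), and of 12 genes of the RAS, PI3K and CREB routes 1 was higher and 8 lower (median -1.70). All tested genes were also called lower more often, 41.1% against 10.4% higher (median -0.65). Frs3, a docking protein of Trk and FGF receptors, rose by 1.23, a call lost without unbound replicate 1 at 0.91. It read 8.97 on all 3 IP arrays, which leaves no spread in IP. Frs3 was not tested when probe sets with identical values were left out. Gab1, another docking protein, fell by 3.39, Sos2, a RAS exchange factor, by 1.64, and Sh2b3 and Irs2 were at least 1.23-fold and 2.57-fold lower. The Sos2 call was lost under both median scalings (-0.97 and -0.62), and that of Irs2 centred on all probe sets (-0.68) and after quantile normalisation (-0.36). Map2k2, the kinase MEK2, rose by 1.52, at 10.66 in IP and 9.14 in unbound RNA. Pik3r1, a regulatory subunit of PI3 kinase, fell by 3.96, Creb1 by 2.62 and Nras by 2.04, and Pik3cb was at least 7.38-fold lower. Creb1 lost its call with the mean of probe sets (-0.89). Under the poly-A scaling Frs3, Map2k2, Bex3, Irak1 and Pcsk6 turned negative.

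Other receptor tyrosine kinases gave a frame for the Trk and RET values. Of 33 on the array 17 were tested, 14 were lower and none higher, with a median log2 change of -2.41, or -2.05 with dim genes at their bound. For all tested genes the shares were 41.1% lower and 10.4% higher (median -0.65). Those with the largest fitted change, Mertk, Fgfr3, Pdgfra and Erbb3, were below the limit on every IP array and at least 4.12-fold, 11.1-fold, 18.02-fold and 13.4-fold lower. Fgfr2 and Csf1r, above the limit in IP, were each 13.8-fold lower. Fgfr3, Pdgfra and Csf1r are also markers on the astrocyte, oligodendrocyte precursor and microglia lists. Pdgfrb, at least 1.72-fold lower, is on the pericyte and meningeal list. Alk at 0.51, Met at -0.00 and Kit at -0.75 were the tested kinases not called, beside Ret at 0.08, Ntrk3 at -0.72 and Ntrk2 at -0.96 by their brightest probe sets.

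**Figure D4:**
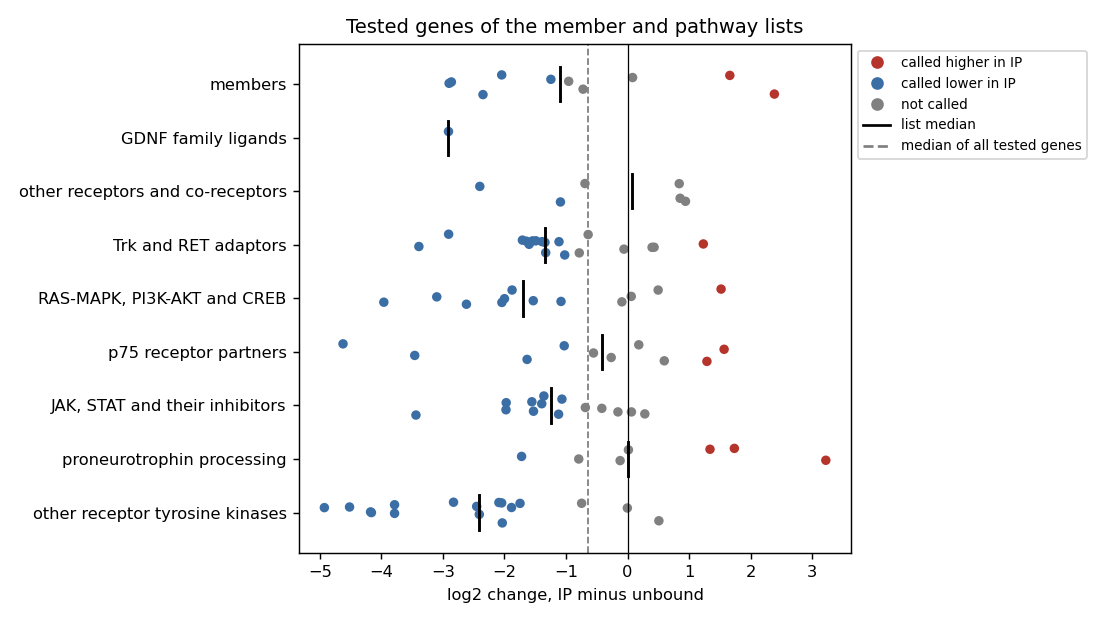
Log2 change (IP minus unbound) of every tested gene of the 10 followed and of the related lists, red where called higher in IP, blue where called lower and grey where not called, with a black bar at each list median. The dashed line is the median of all tested genes, -0.65; the other receptor tyrosine kinases have the lowest median among lists of over 1 gene, -2.41.

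RefSeq promoter windows (GRCm38.p6, 250 bases before the start) were matched for 7 of the 10 genes, 19 windows in all, and not for Ntrk3, Ret and Gfra2. Shown are the 3 windows that lie wholly outside the annotated gene, all of them of called genes. The windows are Ngfr at chr11:95587699-95587948 (minus strand), Bdnf at chr2:109674450-109674699 (plus strand) and Il6st at chr13:112463820-112464069 (plus strand). Capitals mark the STAT consensus TTCNNNGAA, which reads the same on both strands, and which 7.02% of 32851 windows of this length hold. Only the Bdnf window has it, 122 bases before the start. A match describes letters and not a bound site. The GC content was 70.4% for Ngfr, 58.0% for Bdnf and 66.0% for Il6st.
Ngfr: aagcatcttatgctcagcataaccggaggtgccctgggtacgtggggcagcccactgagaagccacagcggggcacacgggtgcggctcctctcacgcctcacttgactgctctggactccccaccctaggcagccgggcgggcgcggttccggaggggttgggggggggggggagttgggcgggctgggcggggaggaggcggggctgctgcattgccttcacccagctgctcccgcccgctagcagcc
Bdnf: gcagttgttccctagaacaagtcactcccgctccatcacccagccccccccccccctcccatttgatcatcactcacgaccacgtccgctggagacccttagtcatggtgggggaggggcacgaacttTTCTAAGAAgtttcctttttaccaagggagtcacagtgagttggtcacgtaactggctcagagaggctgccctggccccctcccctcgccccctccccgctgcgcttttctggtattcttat
Il6st: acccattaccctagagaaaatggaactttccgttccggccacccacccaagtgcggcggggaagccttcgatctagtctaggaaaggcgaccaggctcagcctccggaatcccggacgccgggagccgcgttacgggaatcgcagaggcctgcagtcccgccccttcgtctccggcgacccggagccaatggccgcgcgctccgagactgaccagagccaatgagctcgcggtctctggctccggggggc

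A constant scaling between the groups shifts every gene by the same amount, whereas quantile normalisation moved the 10 genes unequally, Ntrk2 to -0.78 and Cntfr to -0.07. The median log2 change of all tested genes was -0.65 with the biotin controls, -0.41 unscaled, 0.04 after quantile normalisation, 0.05 and 0.42 with arrays centred on expressed or on all probe sets, and -3.37 with the poly-A spikes. Lifr, Gfra2 and Il6st were called lower under every one of these. Gfra1 was called higher under every one but the poly-A scaling, where it was called lower. Ntrk2 (0.07) and Ntrk3 (0.31) turned positive with arrays centred on all probe sets, where Ret was called higher at 1.11. Bdnf kept its sign throughout but was not called after quantile normalisation (-0.95).

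**Figure D5:**
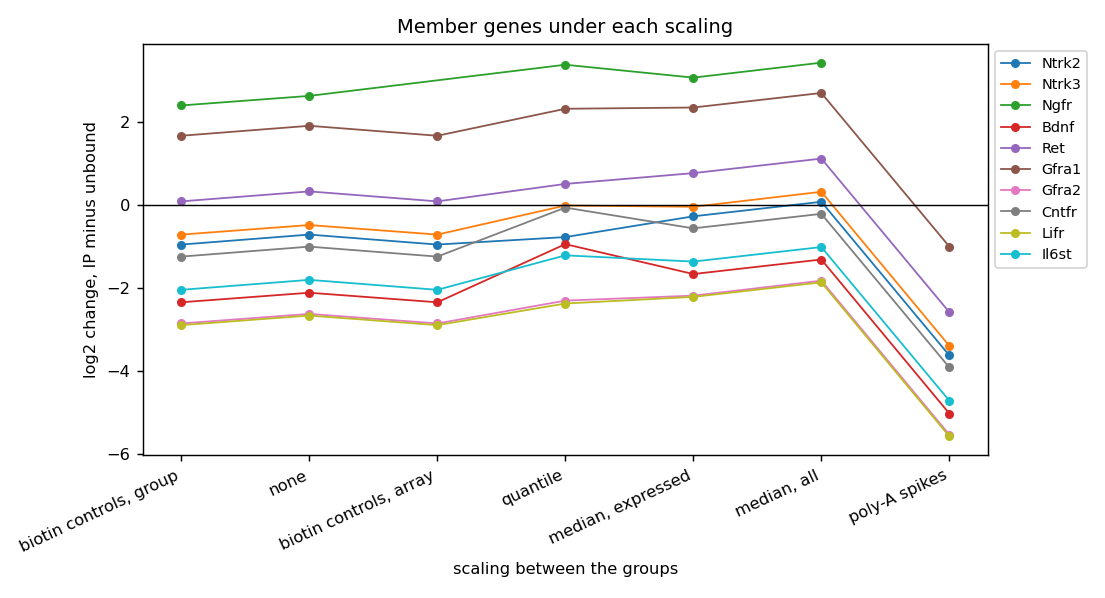
Log2 change (IP minus unbound) of the brightest probe set of each gene under 7 scalings between the groups, with lines joining the values of a gene. Gfra1 stands at 1.66 with the biotin controls and at -1.01 with the poly-A spikes, where every gene plotted is negative; a missing point was not tested.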

How the data were processed

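Per the labels' protocols, ribosome-bound RNA was affinity purified, and 20 ng of total RNA per sample went through a two-cycle Affymetrix amplification. The deposited log2 values were made by the authors with GCRMA within each group of replicates, per the submitters' processing notes. No version of it was found in those notes. The log2 scale was read from the values (floors of 2.22 in IP and 2.17 in unbound arrays). Annotation gave 1 symbol to 34945 of 45101 probe sets.

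IP values were shifted to match the 18 biotin control probe sets. Genes were tested by two-sided limma fits (version 3.58.1 in R 4.3.3) with group as the only term. P-values were adjusted by Benjamini-Hochberg over 10581 genes, and separately over 16835 probe sets. The code was tested on simulated data. Folds given as "at least" count each dim array at no less than log2 5. Replicates are biological by their labels, and each unbound sample's label names the IP replicate it came from. Deviations of same-numbered samples correlated at 0.27, 0.16 and 0.10 across genes. Those of differently numbered samples correlated at -0.25 to 0.21. Alternatives varied scaling, filter, probe set choice, replicate block, variance model and replicates. The probe-set differences were added after the data were seen. From each related list up to 4 higher and 4 lower called genes of largest change were named, with Slc6a4 and Tph2 as a check. Cell type markers, untested ligands and receptors, and other genes named beside them (Sorcs1, Sorcs3, Gfra4, Alk, Met, Kit, Fgfr2, Csf1r) were picked after their values were seen. The genes and lists were chosen with earlier results of these data known.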

Additional observations from a re-analysis of the deposited data

How the results depend on the processing

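With the replicate block, 1108 genes were called higher and 4360 lower, and no call among the 10 genes changed. Leaving out single samples moved none of these counts by over 1.5 times. Over all genes, the counts higher and lower were 2587 and 2797 with arrays centred on expressed probe sets, 3671 and 2203 centred on all probe sets, 2507 and 2479 after quantile normalisation, 35 and 9992 with the poly-A spikes, and 1748 and 7233 with every probe set by itself, against 1104 and 4354. Of the 10 genes, 2 were called higher and 5 lower. With the poly-A spikes 0 were higher and 9 lower. Those called higher numbered 1 with biotin controls applied array by array, the filter at log2 7, the mean of probe sets and without identical values, as Ngfr was not tested there. Those lower numbered 3 after quantile normalisation, with the filter at log2 7 and without _s_at, _x_at and _a_at probe sets (Bdnf and Gfra2 had no other tested), and 11 probe sets when tested singly. With the mean of probe sets they again numbered 5, but Ntrk2 (-1.2) was among them and Cntfr was not tested. Centred on all probe sets, Ntrk2 (0.07) and Ntrk3 (0.31) reversed, and Traf6 (0.05) did so after quantile normalisation. With the poly-A spikes Ret (-2.59), Gfra1 (-1.01), Frs3 (-1.44), Map2k2 (-1.16), Bex3 (-1.11), Irak1 (-1.39) and Pcsk6 (-1.34) reversed. Without single samples Ret ranged between -0.08 and 0.30. Of the other values of the 10 genes under an alternative, 163 kept direction and call, 5 gained and 4 lost a call. Of those of the other named genes, 570 kept both and 28 lost a call. The causes were not tested. Depth is not defined for arrays. Values near the detection limit (Ngfr, Cntfr, Bdnf in IP) rest on little signal over background.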
